A study of Mus musculus with 24 samples.

Results

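Genomic imprinting was examined through a list of 34 mouse genes that are expressed mainly or only from 1 parental copy. Their Ensembl identifiers were looked up in the RNA-Seq count tables of NIH 3T3 cells, which hold 39017 genes. Of the 34 genes, 30 had an identifier in the tables, and 20 of these reached a mean of at least 5 counts over the 24 libraries and were tested among 14361 genes. Another 10 genes lay below that mean, and 4 (Kcnq1ot1, Snrpn, Snurf and Peg13) were not analysed here because their identifiers did not match a row. The counts do not separate the parental alleles, so every value below is the sum over both copies of a gene.

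NIH 3T3 is an established line of mouse embryonic fibroblasts. The study transduced it with retroviral pBabeNeo vectors and compared the fusion proteins TAZ-CAMTA1 and YAP-TFE3, found in epithelioid hemangioendothelioma, with full-length proteins, and 3 libraries of polyadenylated RNA were deposited for each of 8 groups. All lines carry the vector and were selected for it with G418, so empty vector cells share the vector and the drug with the others. The groups were EV (empty vector, confluent for 48 h), EVsub (empty vector, labelled sub-confluent), TAZ4SA and YAP5SA (TAZ and YAP with serines replaced by alanine, so that the LATS kinases cannot phosphorylate them there), TAZ-CAMTA1, YAP-TFE3, TFE3 and CAMTA1. The lines with TAZ4SA, YAP5SA, TFE3 and the fusion proteins had been confluent for 48 h, and CAMTA1 cells were collected before confluence. For EVsub the sources disagree, since the sample titles call it sub-confluent while the growth protocol makes an exception for CAMTA1 alone, so how closely EVsub matches CAMTA1 in density is not settled here. CAMTA1 was therefore compared with EVsub and the other proteins with EV. The fusion proteins were also compared directly with TAZ4SA and YAP5SA, and EVsub with EV. The 3 libraries of a group came from lines made in triplicate by the study's methods, while the labels give replicate numbers only, so p-values measure the spread between these libraries.

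As background, imprinted genes lie in domains that share an imprinting control region, a stretch of DNA methylated on 1 parental chromosome only. Long non-coding RNAs such as H19, Meg3, Kcnq1ot1 and Airn are made from 1 parental chromosome, and several of them silence neighbouring protein-coding genes in cis. Many imprinted genes act on fetal and placental growth and on nutrient supply, among them Igf2, Grb10, Plagl1 and Dlk1, and many decline in tissues after birth.

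The 250 bases before the RefSeq transcription start (GRCm38.p6) are shown for 6 genes. The 4 tested genes of the Dlk1-Dio3 domain are shown because they fell together in TAZ4SA and YAP5SA, Plagl1 for its fall in YAP5SA, and Peg3 because it rose in both TFE3 and CAMTA1. YAP and TAZ reach DNA through TEAD factors, whose core element is GGAATG. Both strands were searched, so that a match on the other strand reads CATTCC, and capitals mark each match. The windows lie at chr12:109452573-109452822 (Dlk1), chr12:109540746-109540995 (Meg3, the first of its RefSeq starts), chr12:109603695-109603944 (Rian), chr12:109734731-109734980 (Mirg) and chr10:13090582-13090831 (Plagl1), all on the plus strand, and at chr7:6730420-6730669 (Peg3, minus strand). The RefSeq starts of Mirg and Plagl1 lie inside the longer GENCODE genes.
Dlk1: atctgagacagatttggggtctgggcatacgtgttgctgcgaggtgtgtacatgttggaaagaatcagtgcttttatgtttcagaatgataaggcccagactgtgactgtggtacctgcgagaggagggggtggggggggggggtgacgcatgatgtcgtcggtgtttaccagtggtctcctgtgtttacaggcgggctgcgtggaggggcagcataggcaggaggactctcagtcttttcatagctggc
Meg3: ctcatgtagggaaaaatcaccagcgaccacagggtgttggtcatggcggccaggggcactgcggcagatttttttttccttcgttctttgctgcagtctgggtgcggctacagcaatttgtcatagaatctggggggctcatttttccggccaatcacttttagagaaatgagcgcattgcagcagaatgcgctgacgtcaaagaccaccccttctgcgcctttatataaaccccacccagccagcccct
Rian: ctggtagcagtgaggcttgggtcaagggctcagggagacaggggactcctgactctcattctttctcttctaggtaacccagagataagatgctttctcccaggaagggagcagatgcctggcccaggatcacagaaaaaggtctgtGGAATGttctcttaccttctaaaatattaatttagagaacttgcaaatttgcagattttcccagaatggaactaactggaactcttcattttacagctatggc
Mirg: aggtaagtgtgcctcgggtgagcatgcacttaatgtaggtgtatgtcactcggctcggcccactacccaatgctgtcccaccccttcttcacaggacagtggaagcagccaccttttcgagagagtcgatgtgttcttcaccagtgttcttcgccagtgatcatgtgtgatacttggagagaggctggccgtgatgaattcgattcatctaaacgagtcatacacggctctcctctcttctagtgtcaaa
Plagl1: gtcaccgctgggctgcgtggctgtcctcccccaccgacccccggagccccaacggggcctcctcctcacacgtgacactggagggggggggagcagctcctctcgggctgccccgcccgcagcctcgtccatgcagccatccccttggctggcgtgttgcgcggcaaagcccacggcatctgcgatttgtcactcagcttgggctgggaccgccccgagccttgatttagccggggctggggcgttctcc
Peg3: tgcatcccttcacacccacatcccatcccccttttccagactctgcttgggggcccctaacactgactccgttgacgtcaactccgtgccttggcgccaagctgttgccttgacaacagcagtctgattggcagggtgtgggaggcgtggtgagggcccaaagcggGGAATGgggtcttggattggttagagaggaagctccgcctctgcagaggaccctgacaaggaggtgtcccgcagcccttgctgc
A match was found at position -103 from the start in Rian and at -84 in Peg3, and none in the other 4 windows. CpG dinucleotides numbered 19 in the Plagl1 window, 10 in those of Meg3 and Mirg, 8 in those of Dlk1 and Peg3 and 0 in that of Rian, against a median of 6.0 over all windows. Among the 20 tested genes, RefSeq windows of 16 were searched (26 windows in all). Of the 26, 2 (7.69%) held the hexamer, against 12.6% of 32851 windows of all genes. H19, Igf2os and Trappc9 had no window, and Impact was left out of the search among the 20 genes.

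Library totals ranged from 16471181 to 30132586 counts, and values are given as CPM, counts scaled to library totals after TMM normalization. Replicates differed by more than counting noise in every group, with a chi-square of 5.49 to 112 per degree of freedom between pairs. EV replicate 2 stood apart from the other EV libraries (32.4 and 22.8, against 6.43 between replicates 1 and 3), and the TAZ4SA libraries differed most from each other (38.8 to 112). All 8 fibroblast markers were tested and summed to 33552.9 to 37368.5 CPM in EV, 19949.9 to 25594.9 in TAZ4SA and 27988.9 to 32925.6 in YAP5SA, and 3 of the 8 were called lower in each of these groups, with 1 and 2 called higher. Over all libraries the sum ran from 18749 to 52182 CPM, while the 6 epithelial markers summed to at most 1.15 CPM. The 1 epithelial marker that could be tested was called lower in TAZ4SA (-2.38) and YAP5SA (-2.37). It was called higher than in EV in TAZ-CAMTA1 (1.64) and YAP-TFE3 (1.62). The summed levels of the haematopoietic, endothelial and skeletal muscle markers were higher in TAZ4SA and YAP5SA than in EV. The 5 haematopoietic markers summed to 15.7 to 64.9 CPM in TAZ4SA and 82.6 to 131 in YAP5SA, against 3.06 to 4.38 in EV, of which Cd68 and Csf1r were tested, with Adgre1 and Cd3e at no more than 3 counts in any library of these groups. The 5 endothelial markers summed to 8.71 to 12.4 CPM in TAZ4SA and 7.997 to 9.12 in YAP5SA, against 2.34 to 4.601 in EV, and of the 3 tested 2 were called higher and 1 lower in each group. Of the same 3, 1 was called higher in TAZ-CAMTA1, 2 in YAP-TFE3 and 1 in TFE3, with 0 lower in each, and 1 was called lower in EVsub. The 4 skeletal muscle markers summed to 4.31 to 8.69 CPM in TAZ4SA and 2.28 to 4.31 in YAP5SA, against 0 to 0.211 in EV, with Myod1 and Ckm at no more than 3 counts. They also summed to 0.566 to 1.80 CPM in TAZ-CAMTA1, 1.15 to 2.56 in YAP-TFE3 and 0.427 to 0.683 in EVsub, where the 1 tested marker was called higher than in EV (3.52, 4.25 and 2.62). The part of these cell type genes in the results for these groups was not tested. In bulk RNA, fewer cells that express a gene and less of its RNA per cell cannot be told apart.

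Of the 20 tested genes, TAZ4SA and YAP5SA lowered most of those that they changed. Under the fusion proteins most of the 20 were not called against EV. The median absolute log2 fold change of the 20 was 0.38 in TAZ-CAMTA1 and 0.25 in YAP-TFE3, beside 0.26 and 0.22 over all genes. The libraries did not overlap those of EV for 10 genes in TAZ-CAMTA1 (45.5% of all genes) and 8 in YAP-TFE3 (36.6%). The genes lowered in both TAZ4SA and YAP5SA include the 4 tested genes of the Dlk1-Dio3 domain. The skew towards falls was not seen in 28 other tested imprinted genes. Of these, 11 were higher and 9 lower in YAP5SA (36.3% and 34.9% of all genes). In TAZ4SA 10 were higher and 8 lower (31.1% and 26.4%). A gene was called where the edgeR quasi-likelihood test gave a Benjamini-Hochberg adjusted p under 0.05 over all 14361 genes, and the share of all genes called is given beside each count as the background. In YAP5SA 17 of the 20 imprinted genes were called, 4 higher and 13 lower, where 71.2% of all genes were called, 36.3% higher and 34.9% lower. In TAZ4SA 11 were called, 2 higher and 9 lower, with 57.5% of all genes called, 31.1% higher and 26.4% lower. The median log2 fold change of the 20 genes was -0.82 in YAP5SA and -0.48 in TAZ4SA, beside 0.01 and 0.05 over all genes. TAZ-CAMTA1 gave 7 calls (3 higher, 4 lower), with 21.5% of all genes called (12.5% higher, 8.98% lower), and YAP-TFE3 gave 3 (2 higher, 1 lower), with 15.3% (10.6% higher, 4.74% lower). The medians of the 20 genes under the fusion proteins were -0.07 and -0.06, beside medians of -0.0041 and 8.3e-06 over all genes. Without EV replicate 1, EV replicate 3 or YAP-TFE3 replicate 1, only 1 call remained in YAP-TFE3 (Igf2os). These 4 comparisons share the EV libraries, and so do those of TFE3 and EVsub.

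**Figure D1:**
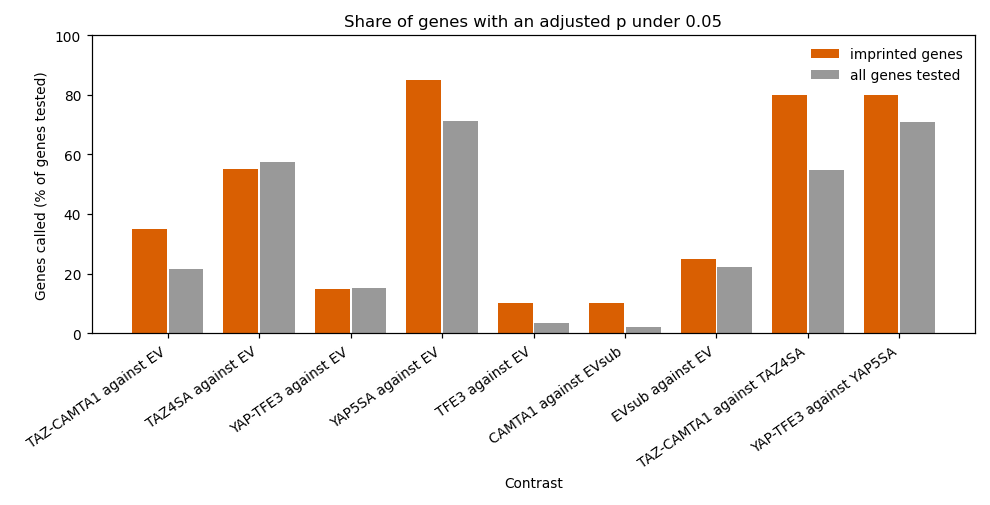
Share of genes called (vertical axis, percent of genes tested, from 0 to 100) in each of 9 contrasts, for the 20 imprinted genes (orange) and for all 14361 genes (grey). The imprinted share was 85.0% in YAP5SA beside 71.2% of all genes, and 80.0% in TAZ-CAMTA1 against TAZ4SA beside 54.7%.

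The direct contrasts do not use EV, but they share the libraries of the fusion proteins, TAZ4SA and YAP5SA with the contrasts above. Both gave 16 called genes of 20. Against TAZ4SA, 11 were higher and 5 lower in TAZ-CAMTA1, where 54.7% of all genes were called, 26.6% higher and 28.1% lower. Against YAP5SA, 11 were higher and 5 lower in YAP-TFE3, where 70.9% were called, 36.4% higher and 34.5% lower. The medians of the 20 genes were 0.73 and 0.98 on the log2 scale, beside 0.0032 and 0.05 over all genes. TFE3 gave 2 calls, both higher, with 3.38% of all genes called (2.36% higher, 1.02% lower), and CAMTA1 against EVsub gave 2, 1 in each direction, with 2.18% (1.29% higher, 0.891% lower). Without CAMTA1 replicate 1 or EVsub replicate 2 the CAMTA1 count was 1, and without EVsub replicate 1 it was 4. EVsub against EV gave 5 (2 higher, 3 lower), with 22.1% of all genes called (12.5% higher, 9.59% lower), and 3 without EV replicate 2 or without EVsub replicate 1. By the parental origin listed for each gene, 5 of 10 paternally and 4 of 8 maternally expressed genes were lower in TAZ4SA (26.4% of all genes). There 0 and 2 were higher (31.1%). In YAP5SA the numbers were 7 and 5 lower (34.9%), with 1 and 3 higher (36.3%). Grb10 and Gnas, whose origin depends on tissue or transcript, were not counted in either class. Ube3a was counted as maternal, though its origin too depends on tissue. Parental origin was not measured in these cells.

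The 3 libraries of a group did not overlap those of the other group for 16 imprinted genes in YAP5SA (75.5% of all genes), 11 in TAZ4SA (56.0%), 10 in TAZ-CAMTA1 (45.5%), 8 in YAP-TFE3 (36.6%) and 10 in TFE3 (31.0%). The number was 4 in CAMTA1 (23.8%), 7 in EVsub against EV (35.9%), 15 in TAZ-CAMTA1 against TAZ4SA (55.2%) and 17 in YAP-TFE3 against YAP5SA (75.2%).

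Scaling by library totals alone, an alternative chosen after the data were seen, moved the median log2 fold change of all genes by -0.17 in TAZ4SA against EV and by -0.37 in YAP5SA against EV, and by 0.17 and 0.36 in the contrasts of the fusion proteins with TAZ4SA and YAP5SA. The share of higher genes among all called genes moved from 54.1% to 41.9% in TAZ4SA, from 51.0% to 34.5% in YAP5SA, from 48.5% to 62.0% in TAZ-CAMTA1 against TAZ4SA and from 51.4% to 67.6% in YAP-TFE3 against YAP5SA. None of the 79 called results of imprinted genes, out of 180 pairs of gene and contrast, changed direction with it.

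**Figure D2:**
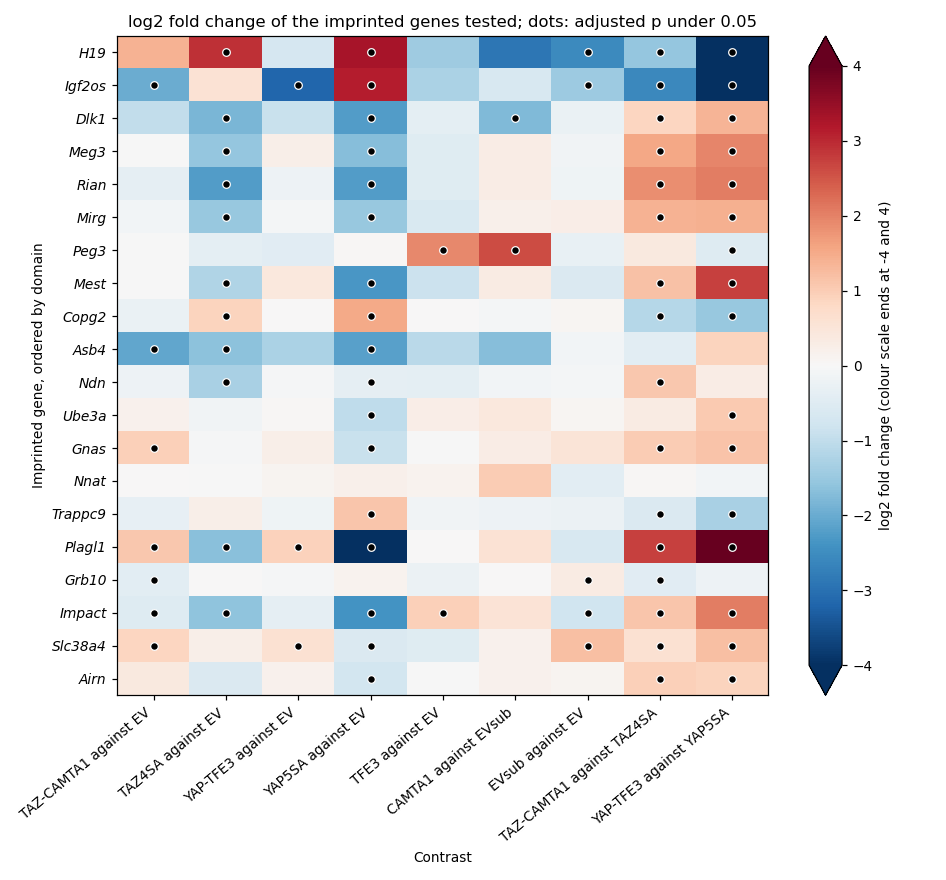
Fitted log2 fold change (colour, scale ending at -4 and 4) of the 20 tested imprinted genes (rows, by domain) in 9 contrasts (columns). Dots mark an adjusted p under 0.05. The 4 Dlk1-Dio3 genes are blue with dots in TAZ4SA and YAP5SA and red with dots in both direct contrasts.

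Imprinted RNAs differed widely in level. In EV, per kilobase of exon, Dlk1 stood at 242 CPM, Grb10 at 71.9 and Impact at 44.7, while Gnas (0.244), Mest (0.259) and Nnat (0.293) were lowest among the 20. H19 (5.91) and Meg3 (15.6) lay between them. Gnas, the gene for the alpha subunit of the stimulatory G protein, shares 1469 exon bases with Gm20721 and 988 with Nespas on the opposite strand, and its level here is that of the deposited identifier. The EV libraries held 1, 1 and 4 counts of Gm20721 and 4, 2 and 5 of Nespas, against 73, 58 and 53 of Gnas. How far this identifier covers the RNA of the gene was not tested.

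Dlk1 and 3 maternally expressed RNAs of the Dlk1-Dio3 domain on chromosome 12 fell in TAZ4SA and YAP5SA, and these 4 genes were all higher under the fusion proteins than under those full-length proteins. Dlk1 (chr12:109452823-109463336) encodes a transmembrane protein of the Notch ligand type that holds back fat cell differentiation. The 3 EV libraries held 1555, 896 and 1651 CPM, and the EVsub libraries 741, 1546 and 1094. TAZ4SA held 407, 508 and 234 CPM and YAP5SA 206, 393 and 264. TAZ-CAMTA1 held 846, 669 and 575 CPM and YAP-TFE3 556, 799 and 844. Thus the libraries of all 4 proteins lay below every EV library, and those of TAZ4SA and YAP5SA below the fusion proteins. TFE3 held 1054, 1137 and 941 CPM, inside the range of EV. CAMTA1 held 149, 395 and 454 CPM, below every EVsub library.

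By the edgeR test Dlk1 fell 3.57-fold in TAZ4SA (log2 fold change -1.84, SE 0.36, adjusted p = 0.000161) and 4.75-fold in YAP5SA (-2.25, SE 0.36, edgeR adjusted p = 1e-05). In TAZ-CAMTA1 and YAP-TFE3 it did not pass, at -0.97 (edgeR adjusted p = 0.0507) and -0.90 (0.0884), and both passed without EV replicate 2 (-1.20 and -1.13). Dlk1 in TAZ-CAMTA1 also passed in DESeq2 (adjusted p = 0.0192), with the replicate block (0.0452) and under each of the other settings of normalization, filter and samples fitted (adjusted p from 0.000786 to 0.0451). In YAP-TFE3 it passed in DESeq2 (0.0418), when low counts were left unfiltered (0.00276) and with only the 2 groups fitted (0.0359). Set directly against TAZ4SA, Dlk1 was higher in TAZ-CAMTA1 by 0.86 (edgeR adjusted p = 0.0415), a call that was lost without TAZ4SA replicate 1 (0.91) or 3 (0.61) or TAZ-CAMTA1 replicate 1 (0.70) or 2 (0.89). The difference of 1.35 between YAP-TFE3 and YAP5SA (edgeR adjusted p = 0.00179) was kept whichever library was left out. Dlk1 fell 3.39-fold in CAMTA1 against EVsub (-1.76, SE 0.36, edgeR adjusted p = 0.0105), and this was lost without CAMTA1 replicate 1 (-1.41, adjusted p = 0.0545) or EVsub replicate 2 (-1.46).

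Meg3, Rian and Mirg follow each other on the plus strand downstream of Dlk1, with Meg3 at chr12:109541001-109571726, Rian at chr12:109603940-109661716 and Mirg at chr12:109729764-109749460. Meg3 is a long non-coding RNA, Rian hosts small nucleolar RNAs, and Mirg hosts a cluster of microRNAs. Meg3 stood at 348, 178 and 321 CPM in EV, at 131, 64.6 and 90.9 in TAZ4SA and at 71.1, 109.6 and 79.2 in YAP5SA. It held 283, 261 and 293 CPM in TAZ-CAMTA1 and 299.7, 480.4 and 224 in YAP-TFE3. The TAZ4SA and YAP5SA libraries lay below all EV libraries, and those of the fusion proteins overlapped EV. EVsub held 225, 189.8 and 346 CPM, TFE3 208, 207 and 194, and CAMTA1 282, 290.2 and 354, all overlapping their controls.

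Rian showed the same order with less spread. It held 295, 212 and 319 CPM in EV, 65.5, 39.3 and 70.7 in TAZ4SA and 57.5, 61.4 and 57.7 in YAP5SA. TAZ-CAMTA1 held 226, 205 and 211 CPM and YAP-TFE3 226, 292 and 205. No TAZ4SA or YAP5SA library came near the EV range, whereas the fusion proteins overlapped it. EVsub held 240.5, 204 and 286 CPM, CAMTA1 293, 280.3 and 321, and TFE3 196, 197 and 198, the last just under the lowest EV library. Mirg held 33.9, 20.6 and 33.7 CPM in EV, 12.7, 7.94 and 10.3 in TAZ4SA and 10.7, 9.13 and 11.2 in YAP5SA. It stood at 29.2, 25.0 and 27.5 in TAZ-CAMTA1, at 22.2, 37.1 and 23.6 in YAP-TFE3 and at 19.4, 20.2 and 18.8 in TFE3. EVsub held 33.4, 29.6 and 43.9 CPM of Mirg and CAMTA1 35.5, 41.4 and 45.6. In all 3 RNAs EV replicate 2 was the lowest EV library.

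In the edgeR fit Rian fell 4.69-fold in TAZ4SA (-2.23, SE 0.18, adjusted p = 2.19e-09) and 4.68-fold in YAP5SA (-2.23, SE 0.18, adjusted p = 6.19e-10). Meg3 fell 2.95-fold (edgeR adjusted p = 7.33e-05) and 3.26-fold (1.49e-05), and Mirg 2.84-fold (3.7e-06) and 2.85-fold (1.63e-06). Under TAZ-CAMTA1 the log2 fold changes against EV were -0.01 for Meg3 (95% interval -0.59 to 0.56), -0.37 for Rian (-0.73 to -0.0035) and -0.11 for Mirg (-0.53 to 0.31), and none was called, although Rian passed without EV replicate 2 (-0.52, edgeR adjusted p = 0.0396). YAP-TFE3 gave 0.25 (-0.32 to 0.82), -0.19 (-0.55 to 0.17) and -0.09 (-0.51 to 0.33), again with no call. Against TAZ4SA the 3 RNAs were higher in TAZ-CAMTA1 by 1.55, 1.86 and 1.40, and against YAP5SA higher in YAP-TFE3 by 1.95, 2.03 and 1.42, with edgeR adjusted p from 2.68e-09 to 0.000101. These calls held whichever library was left out. Neither TFE3, CAMTA1 nor EVsub gave a call for the 3 RNAs, but Mirg passed in TFE3 without EV replicate 2 (-0.80, edgeR adjusted p = 0.0402). Meg3 shares 1228 of its exon bases with Gm26906 on the opposite strand.

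**Figure D3:**
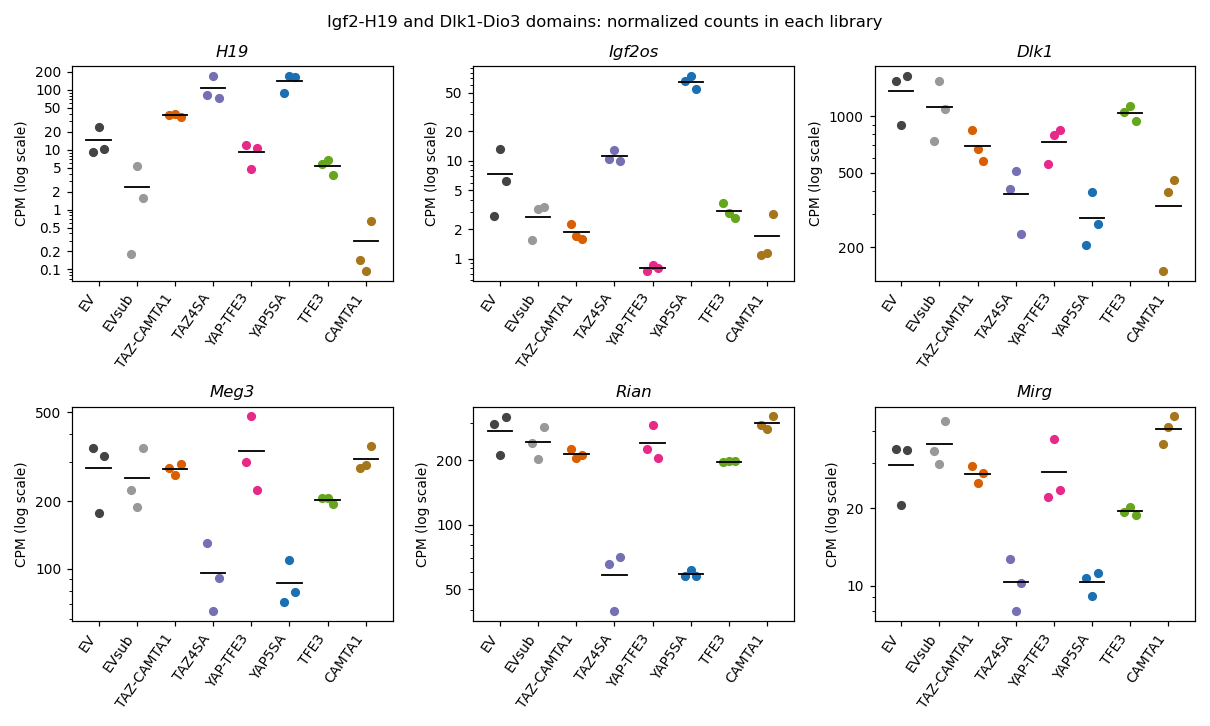
Normalized counts (CPM, log scale) of H19, Igf2os, Dlk1, Meg3, Rian and Mirg in each of 24 libraries. Points are libraries, lines are group means (n = 3). Dlk1, Meg3, Rian and Mirg sit lower in TAZ4SA and YAP5SA than in EV, and H19 sits higher there.

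H19 and Igf2os, from the Igf2-H19 domain on chromosome 7, were highest in YAP5SA. H19 (chr7:142575529-142578143, minus strand) is a maternally expressed non-coding RNA and the host of a microRNA. It held 9.37, 23.9 and 10.3 CPM in EV, 83.9, 171 and 72.2 in TAZ4SA and 87.9, 174 and 163 in YAP5SA. It stood at 37.8, 39.3 and 35.8 in TAZ-CAMTA1 and at 11.9, 4.82 and 10.6 in YAP-TFE3. All TAZ4SA, YAP5SA and TAZ-CAMTA1 libraries lay above every EV library, and those of YAP-TFE3 overlapped EV. TFE3 held 5.72, 6.88 and 3.73 CPM, below EV. EVsub held 0.182, 5.38 and 1.56 and CAMTA1 0.144, 0.0952 and 0.649, with only 4 counts in EVsub replicate 1 and 2 to 21 counts in the CAMTA1 libraries.

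The edgeR fit gave an H19 rise of 7.50-fold in TAZ4SA (2.91, SE 0.52, adjusted p = 6.89e-05) and 9.77-fold in YAP5SA (3.29, SE 0.53, adjusted p = 9.72e-06). TAZ-CAMTA1 did not pass at 1.38 (SE 0.50, edgeR adjusted p = 0.0557), but did without EV replicate 2 (1.93, adjusted p = 0.0174), when low counts were left unfiltered (0.000284), with only the 2 groups fitted (0.0093) and with the replicate block (0.0285). Against TAZ4SA, H19 was lower in TAZ-CAMTA1 by -1.53 (edgeR adjusted p = 0.012), which was lost without TAZ4SA replicate 2 (-1.05, adjusted p = 0.0881) and in DESeq2 (adjusted p = 0.0615). Against YAP5SA it was 15.7-fold lower in YAP-TFE3 (-3.97, edgeR adjusted p = 1.37e-06). H19 also fell in EVsub against EV (-2.54, SE 0.58, edgeR adjusted p = 0.00322), and the value was -4.01 without EVsub replicate 2. In TFE3 against EV, H19 did not pass at -1.42 (SE 0.54, edgeR adjusted p = 0.187). It passed when low counts were left unfiltered (edgeR adjusted p = 0.00271) and with only the 2 groups fitted (0.0432). In CAMTA1 the log2 fold change against EVsub was -2.90 (SE 0.87, edgeR adjusted p = 0.083), on few counts, and it passed without EVsub replicate 1 (-3.41), in DESeq2 (adjusted p = 0.0092) and with no filter (5.55e-05).

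Igf2os (chr7:142659693-142670356, plus strand) is a paternally expressed RNA antisense to Igf2, the gene for insulin-like growth factor 2. In EV it held 2.74, 13.3 and 6.19 CPM, in YAP5SA 65.8, 74.6 and 53.9 and in TAZ4SA 10.6, 13.04 and 9.89. YAP-TFE3 held 0.752, 0.871 and 0.807 CPM and TAZ-CAMTA1 2.27, 1.72 and 1.60. So the fusion proteins lay below every EV library and YAP5SA above, while TAZ4SA overlapped EV. EVsub held 1.55, 3.21 and 3.34 CPM, TFE3 3.71, 2.95 and 2.58, and CAMTA1 1.08, 1.14 and 2.84, each overlapping its control.

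Igf2os rose 8.78-fold in YAP5SA (3.13, SE 0.38, edgeR adjusted p = 1.76e-07) and fell in YAP-TFE3 (-3.17, SE 0.46, edgeR adjusted p = 3.7e-05) and in TAZ-CAMTA1 (-1.98, SE 0.41, edgeR adjusted p = 0.00133). Without EV replicate 2, the highest EV library, these 3 values were 3.86, -2.44 and -1.26, and all stayed called. Between YAP-TFE3 and YAP5SA it differed 79.0-fold (-6.30, 95% interval -7.28 to -5.33, edgeR adjusted p = 1.91e-10), the largest difference among the 180 pairs of gene and contrast, and between TAZ-CAMTA1 and TAZ4SA 5.95-fold (-2.57). TAZ4SA against EV stood at 0.59 (edgeR adjusted p = 0.176) and passed without EV replicate 2 (1.32). TFE3 at -1.26 (0.0846) passed without EV replicate 1 (-1.66) and with no filter (0.00141). The fall in EVsub (-1.44, edgeR adjusted p = 0.0116) was lost without EV replicate 2 (-0.71) or EVsub replicate 1 (-1.17). Igf2 itself, which is not among the 34 genes, shares 98 exon bases with Igf2os on the opposite strand, 1.8% of the exon bases of Igf2os. The protein-coding gene Gm49394 shares 1142 (21.4%), also on the opposite strand. Igf2 held 100.3, 284 and 169 CPM in EV, 1105, 1329.7 and 970.2 in YAP5SA and 76.7, 46.6 and 38.9 in YAP-TFE3. It too rose in YAP5SA (2.62, edgeR adjusted p = 8.02e-05) and fell in YAP-TFE3 (-1.77, 0.0156) and EVsub (-1.61, 0.0215), and was not called in TAZ-CAMTA1 (-0.14, 0.878). The kit kept strand, but how reads were assigned to strand in these counts is not given in the sources used here, so reads of Igf2os and of Igf2 or Gm49394 in the shared bases may not have been separated.

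Plagl1, Slc38a4 and Impact are paternally expressed genes outside the large domains, and moved in opposite directions under different proteins. Plagl1 (chr10:13060504-13131694) encodes a zinc finger transcription factor that restrains the cell cycle. It held 18.0, 21.5 and 18.1 CPM in EV, 46.5, 34.4 and 41.6 in TAZ-CAMTA1 and 41.1, 36.9 and 30.2 in YAP-TFE3. TAZ4SA held 5.01, 3.07 and 9.67 CPM and YAP5SA 1.03, 0.785 and 1.46. Every library of the fusion proteins lay above EV and every library of TAZ4SA and YAP5SA below it. TFE3 held 16.9, 21.6 and 20.1 CPM, EVsub 14.1, 8.33 and 14.9, and CAMTA1 19.1, 19.9 and 16.4. Plagl1 fell 17.9-fold in YAP5SA (-4.16, SE 0.33, edgeR adjusted p = 4.34e-10) and 3.16-fold in TAZ4SA (-1.66, SE 0.27, edgeR adjusted p = 2.2e-05). It rose 2.13-fold in TAZ-CAMTA1 (1.09, SE 0.25, edgeR adjusted p = 0.0032) and by 0.91 in YAP-TFE3 (SE 0.25, edgeR adjusted p = 0.0149), the latter lost without EV replicate 1 (0.87) or 3 (0.87) or YAP-TFE3 replicate 1 (0.78). Tested directly, Plagl1 was 33.6-fold higher in YAP-TFE3 than in YAP5SA (5.07, SE 0.34, edgeR adjusted p = 3.63e-11) and 6.72-fold higher in TAZ-CAMTA1 than in TAZ4SA (2.75, SE 0.27, edgeR adjusted p = 6.43e-08). TFE3 and CAMTA1 gave no call (0.03 and 0.57).

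Slc38a4 (chr15:96994820-97055956, minus strand) encodes a sodium-coupled amino acid transporter. It held 78.5, 101 and 66.8 CPM in EV, 129, 159 and 156 in TAZ-CAMTA1 and 130.4, 137 and 109 in YAP-TFE3. YAP5SA held 55.1, 50.3 and 58.0, TFE3 59.6, 55.6 and 59.4 and TAZ4SA 80.0, 73.2 and 139. EVsub held 229, 172 and 168 CPM and CAMTA1 181, 237 and 222. The fusion proteins and EVsub lay wholly above EV, and YAP5SA and TFE3 wholly below. By the edgeR test Slc38a4 rose in EVsub (1.21, SE 0.19, adjusted p = 0.000128), in TAZ-CAMTA1 (0.85, adjusted p = 0.00241) and in YAP-TFE3 (0.62, adjusted p = 0.0287), and fell in YAP5SA (-0.59, adjusted p = 0.00893). The YAP-TFE3 call was lost without EV replicate 1 (0.59) or 3 (0.49) or YAP-TFE3 replicate 1 (0.56) or 2 (0.55), and the YAP5SA call without EV replicate 2 (-0.42). YAP-TFE3 exceeded YAP5SA by 1.21 (edgeR adjusted p = 8.88e-06). TAZ-CAMTA1 exceeded TAZ4SA by 0.60 (edgeR adjusted p = 0.0105), which was lost without TAZ4SA replicate 1 (0.48) or 2 (0.44).

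Impact encodes an inhibitor of the amino acid sensing kinase GCN2. The EV libraries held 215, 222 and 250.4 CPM, those of TFE3 428, 433 and 466. TAZ4SA held 85.6, 47.1 and 90.9 CPM and YAP5SA 43.2, 47.4 and 39.3. TAZ-CAMTA1 held 174, 167 and 144, YAP-TFE3 185, 169.7 and 181, EVsub 146, 107 and 141, and CAMTA1 222, 179 and 171. TFE3 alone lay above EV, and the other groups kept at confluence below it. Impact fell 5.29-fold in YAP5SA (-2.40, SE 0.18, edgeR adjusted p = 1.36e-10) and 3.07-fold in TAZ4SA (-1.62, edgeR adjusted p = 9.33e-08), and rose in TFE3 (0.95, SE 0.17, edgeR adjusted p = 0.00245). It also fell in EVsub (-0.80, edgeR adjusted p = 0.00178). The fall in TAZ-CAMTA1 (-0.51, edgeR adjusted p = 0.0352) was lost without any 1 EV library (-0.55, -0.53 and -0.44) and without TAZ-CAMTA1 replicate 2 (-0.53) or 3 (-0.43). Impact was higher in TAZ-CAMTA1 than in TAZ4SA by 1.11 and in YAP-TFE3 than in YAP5SA by 2.04 (edgeR adjusted p = 1.49e-05 and 1.67e-09). It was called in 7 of the 9 contrasts, more than any other of the 20 genes.

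**Figure D4:**
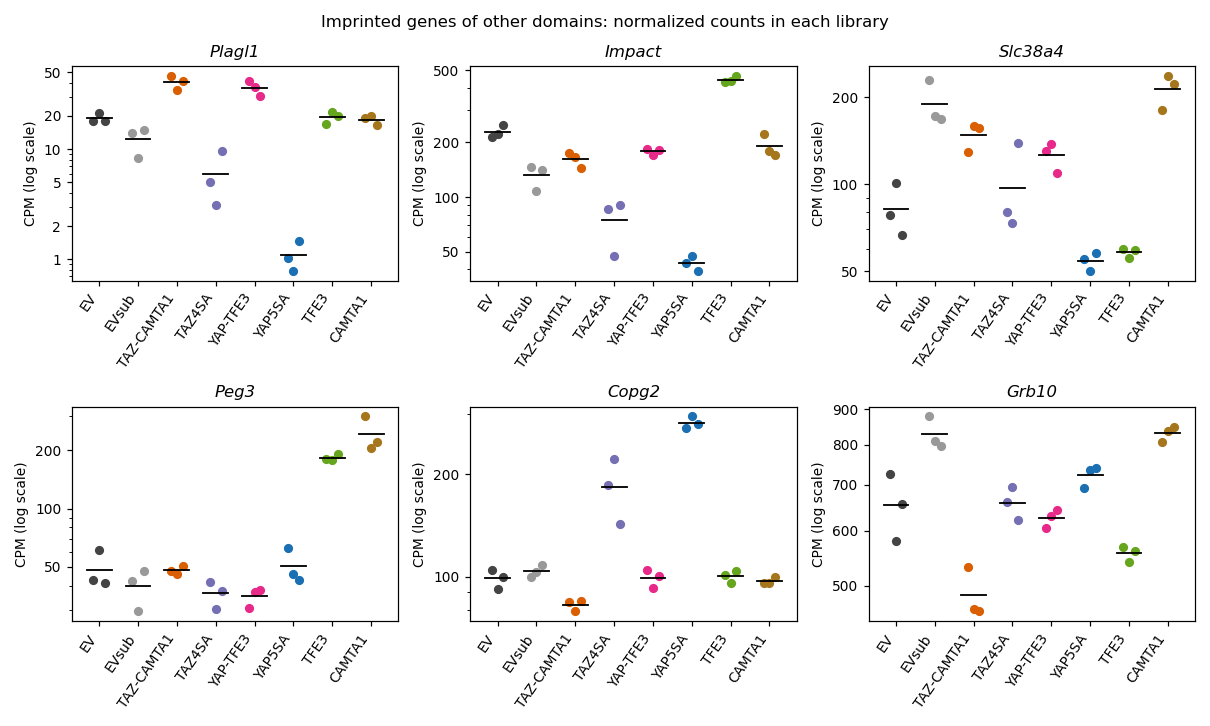
Normalized counts (CPM, log scale) of Plagl1, Impact, Slc38a4, Peg3, Copg2 and Grb10 in each of 24 libraries. Points are libraries, lines are group means (n = 3). Peg3 sits at 177 to 299.7 CPM in TFE3 and CAMTA1 and at 62.4 or less elsewhere, and Plagl1 at 0.785 to 1.46 in YAP5SA.

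Peg3 rose in TFE3 and in CAMTA1 and not in the fusion proteins that contain parts of them. Peg3 (chr7:6703892-6730431, minus strand) encodes a zinc finger protein linked to growth and maternal behaviour. It held 42.6, 61.4 and 41.1 CPM in EV, 181, 177 and 192 in TFE3 and 30.7, 37.0 and 38.2 in YAP-TFE3. EVsub held 42.4, 29.5 and 47.5 CPM, CAMTA1 299.7, 205 and 219.6, and TAZ-CAMTA1 47.9, 45.8 and 50.9. TAZ4SA held 42.0, 30.2 and 37.6 and YAP5SA 62.4, 45.8 and 42.8. The TFE3 and CAMTA1 libraries stood above all others, with no overlap. The rise was 3.79-fold in TFE3 (1.92, SE 0.19, edgeR adjusted p = 2.46e-06) and 6.08-fold in CAMTA1 against EVsub (2.60, SE 0.19, edgeR adjusted p = 3.82e-08). TAZ-CAMTA1 stood at -0.01 against EV (edgeR adjusted p = 0.989) and YAP-TFE3 at -0.45 (0.109). The fall from YAP5SA to YAP-TFE3 (-0.51, edgeR adjusted p = 0.0181) was lost without YAP5SA replicate 1 (-0.33) or YAP-TFE3 replicate 1 (-0.40) and with library totals alone (-0.15). TAZ4SA stood at -0.40 against EV (edgeR adjusted p = 0.0727), and passed without EV replicate 3 (-0.50) or TAZ4SA replicate 1 (-0.51). Its neighbours Usp29 and Zim1 held at most 5 and 2 counts in any library.

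In the Snrpn-Ube3a domain of chromosome 7 both tested genes fell in YAP5SA. Ndn, which encodes necdin, a protein of the MAGE family, had group means of 44.4 ± 6.55 CPM in EV, 18.1 ± 2.21 in TAZ4SA and 34.6 ± 8.37 in YAP5SA (SD, n = 3), and means of 34.1 to 42.8 in the other groups. It fell by 1.30 on the log2 scale in TAZ4SA (edgeR adjusted p = 1.75e-07), with no overlap of libraries, and was 2.12-fold higher in TAZ-CAMTA1 than in TAZ4SA (edgeR adjusted p = 2.52e-06). Its smaller change in YAP5SA (-0.36, edgeR adjusted p = 0.0279) was lost without EV replicate 1 (-0.30) or 3 (-0.29) or YAP5SA replicate 2 (-0.24) or 3 (-0.29). YAP-TFE3 stood at 0.30 against YAP5SA (edgeR adjusted p = 0.0601), and passed without YAP5SA replicate 1 (0.52) or YAP-TFE3 replicate 2 (0.36). Ube3a, a ubiquitin ligase gene that is maternally expressed in neurons, had a mean of 28.8 ± 3.09 CPM in YAP5SA, 57.8 ± 14.9 in EV and 59.9 ± 7.24 in YAP-TFE3 (SD, n = 3). It fell 2.01-fold in YAP5SA (edgeR adjusted p = 0.000837) and was 2.08-fold higher in YAP-TFE3 than in YAP5SA (edgeR adjusted p = 0.000532). In TAZ4SA, whose libraries spread from 28.6 to 78.7 CPM, Ube3a was not called at -0.14, and without TAZ4SA replicate 3 it was (-0.57), as it then was between TAZ-CAMTA1 and TAZ4SA (0.75).

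Magel2, the other MAGE gene there, had 0 counts in all 24 libraries, which allows up to 3 counts in each. Snrpn and Snurf had no matching row, but the tables hold Gm38393 (ENSMUSG00000000948), whose exons cover all 216 exon bases of Snurf and 27.3% of those of Snrpn on the same strand. It is not among the 34 genes and was singled out after its values were seen. Gm38393 held 3.46, 2.67 and 2.96 CPM in EVsub and 60.5, 37.5 and 36.6 in CAMTA1, a 14.8-fold rise (3.89, SE 0.29, edgeR adjusted p = 3.82e-08). It held 1.06, 2.24 and 0.575 CPM in EV, 9.48, 13.5 and 9.15 in TAZ4SA, 13.8, 13.1 and 12.3 in YAP5SA, 3.40, 3.07 and 3.43 in TAZ-CAMTA1, 7.52, 4.02 and 5.22 in YAP-TFE3 and 1.07, 0.802 and 1.05 in TFE3. The CAMTA1 libraries thus lay above those of every other group. Against EV, Gm38393 was also higher in TAZ4SA (3.05), YAP5SA (3.35), YAP-TFE3 (2.11), TAZ-CAMTA1 (1.37) and EVsub (1.24), at edgeR adjusted p of at most 0.0098, and was not called in TFE3 (-0.39, 0.743).

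In the Mest domain of chromosome 6 the 2 tested genes, whose transcripts overlap tail to tail, moved in opposite directions. Copg2 (chr6:30747554-30896794, minus strand), a subunit of the coatomer that coats transport vesicles, held 105, 91.8 and 99.9 CPM in EV, 186, 221 and 142 in TAZ4SA and 272, 296 and 281 in YAP5SA. TAZ-CAMTA1 held 84.4, 79.0 and 84.5 and YAP-TFE3 105, 92.8 and 100.3. The other groups held 99.7, 103 and 108 (EVsub), 101, 95.6 and 104 (TFE3) and 96.1, 95.8 and 99.8 (CAMTA1). TAZ4SA and YAP5SA lay above all other libraries. Copg2 rose in TAZ4SA (0.89, SE 0.11, edgeR adjusted p = 7.11e-07) and 2.86-fold in YAP5SA (1.52, SE 0.11, edgeR adjusted p = 1.19e-10), and was lower under each fusion protein than under the matching full-length protein (-1.15 and -1.51). Mest, which encodes a protein of the hydrolase fold family, had few reads, with means of 1.02 ± 0.407 CPM in EV, 0.427 ± 0.211 in TAZ4SA and 0.205 ± 0.107 in YAP5SA (SD, n = 3). Mest fell in YAP5SA (log2 fold change -2.32, edgeR adjusted p = 0.000224) and was 6.71-fold higher in YAP-TFE3 than in YAP5SA (edgeR adjusted p = 2.29e-05). The change in TAZ4SA (-1.20, edgeR adjusted p = 0.0192) was lost without EV replicate 2 (-0.89) or TAZ4SA replicate 1 (-0.90) or 2 (-1.13), and that between TAZ-CAMTA1 and TAZ4SA (1.17, edgeR adjusted p = 0.0235) without TAZ4SA replicate 1 (0.87) or 2 (1.10) or TAZ-CAMTA1 replicate 1 (0.93). Mest and Copg2 share 912 exon bases on opposite strands.

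Grb10 (chr11:11930508-12038683, minus strand), an adaptor that dampens insulin and IGF receptor signalling, changed little. It held 725, 579 and 657 CPM in EV, 879.5, 811 and 797 in EVsub and 532, 463 and 459 in TAZ-CAMTA1. TAZ4SA held 659.8, 695 and 622, YAP5SA 692, 736 and 741, YAP-TFE3 606, 630.3 and 644, TFE3 569.7, 541 and 560.4 and CAMTA1 807, 839 and 849.6. TAZ-CAMTA1 lay below EV and EVsub above it, without overlap. Grb10 fell in TAZ-CAMTA1 against EV (-0.43, SE 0.10, edgeR adjusted p = 0.00252) and was lower there than in TAZ4SA (-0.44, edgeR adjusted p = 0.000621). The rise in EVsub (0.34, edgeR adjusted p = 0.0138) was lost without EV replicate 2 (0.26) or EVsub replicate 1 (0.30).

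Gnas held 3.08, 2.77 and 2.34 CPM in EV, 9.46, 3.68 and 2.87 in TAZ-CAMTA1 and 1.93, 2.62 and 3.39 in TAZ4SA. YAP5SA held 1.33, 1.96 and 1.08, YAP-TFE3 3.16, 3.52 and 3.01, TFE3 2.68, 2.87 and 2.65, EVsub 4.15, 4.27 and 3.30 and CAMTA1 3.93, 5.24 and 5.16. YAP5SA lay below EV, and TAZ-CAMTA1 replicate 1 stood far above the other libraries. The call in TAZ-CAMTA1 against EV (0.97, edgeR adjusted p = 0.0304) came down to 0.26 without that library (adjusted p = 0.503) and was also lost without EV replicate 1 (1.07), 2 (0.98) or 3 (0.87). Likewise the call against TAZ4SA (1.01, edgeR adjusted p = 0.0112) became 0.30 without TAZ-CAMTA1 replicate 1 and was lost without TAZ4SA replicate 1 (0.82). Gnas fell in YAP5SA (-0.89, edgeR adjusted p = 0.0288), which was lost without EV replicate 1 (-0.79) or 2 (-0.88) or YAP5SA replicate 1 (-0.82) or 3 (-0.72), and it was 2.19-fold higher in YAP-TFE3 than in YAP5SA (edgeR adjusted p = 0.00612).

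Trappc9, a subunit of a vesicle tethering complex, rose 2.17-fold in YAP5SA, from a mean of 62.4 ± 2.82 to 136 ± 8.10 CPM (SD, n = 3, edgeR adjusted p = 8.3e-07), and was lower under the fusion proteins than under TAZ4SA (-0.57) and YAP5SA (-1.28). In TAZ4SA it was not called at 0.25, and it was without TAZ4SA replicate 3 (0.42). Asb4, a substrate adaptor of ubiquitin ligases, fell from a mean of 2.13 ± 0.429 CPM in EV to 0.503 ± 0.049 in TAZ-CAMTA1, 0.663 ± 0.264 in TAZ4SA and 0.488 ± 0.242 in YAP5SA (SD, n = 3), at edgeR adjusted p of 0.00471, 0.00772 and 0.001. In YAP-TFE3 and CAMTA1 Asb4 stood at -1.27 and -1.69 (edgeR adjusted p = 0.0716 and 0.0667), and passed without YAP-TFE3 replicate 3 (-1.95) and without EVsub replicate 1 (-2.07). Both also passed with no filter (0.0208 and 0.0044) and with the replicate block (0.0282 and 0.0411), and CAMTA1 in DESeq2 (0.0303). Airn, the non-coding RNA that silences Igf2r on the paternal chromosome, fell from a mean of 3.37 ± 0.27 CPM to 2.00 ± 0.143 in YAP5SA (SD, n = 3, edgeR adjusted p = 0.00953), and was higher under the fusion proteins than under TAZ4SA (0.96) and YAP5SA (0.90). Igf2r, whose exons share no base with those of Airn, rose in TFE3 (0.57, edgeR adjusted p = 0.0228) and YAP-TFE3 (0.44, 0.0351) and was not called in YAP5SA (0.05, 0.782). Nnat, a small membrane protein gene, had group means of 0.404 to 0.815 CPM and was called in none of the 9 contrasts, at most 1.01 on the log2 scale (CAMTA1 against EVsub, 95% interval 0.015 to 2.01).

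Of the 10 genes below the mean of 5 counts, Phlda2, Peg10 and Magel2 had 0 counts in all libraries, Zdbf2 and Ascl2 at most 1 and Slc22a18 at most 6. Phlda2, Slc22a18 and Ascl2 were the genes of the Kcnq1 domain in the tables, so that none of the listed genes of this domain was tested. Cdkn1c, a cyclin-dependent kinase inhibitor gene of the same domain outside the 34, had 1 count in 1 library. Sgce had 6, 4 and 4 counts in YAP-TFE3, 15, 8 and 14 in YAP5SA and 5, 2 and 9 in TAZ4SA, against 0, 1 and 0 in EV. Ppp1r9a had 25, 5 and 47 counts in TAZ4SA, against 2, 1 and 1 in EV. They were too low to be tested.

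Other imprinted genes and the factors that keep imprints were counted for comparison. Of 44 other imprinted genes, 28 were tested. In YAP5SA 11 were higher and 9 lower, beside 36.3% and 34.9% of all genes. In TAZ4SA the counts were 10 and 8 (beside 31.1% and 26.4%), in TAZ-CAMTA1 5 and 1 (12.5% and 8.98%), in YAP-TFE3 6 and 1 (10.6% and 4.74%) and in EVsub 3 and 6 (12.5% and 9.59%). In TFE3 and CAMTA1 they were 1 and 0, beside 2.36% and 1.02% in TFE3 and 1.29% and 0.891% in CAMTA1. Their median log2 fold change was 0.22 in YAP5SA and -0.02 in TAZ4SA. In the direct contrasts 9 were higher and 8 lower in TAZ-CAMTA1 (beside 26.6% and 28.1% of all genes), and 13 and 12 in YAP-TFE3 (beside 36.4% and 34.5%). Of 25 genes for DNA methyltransferases, zinc finger proteins and related factors, 22 were tested. Against the same shares of all genes, in YAP5SA 2 were higher (36.3% of all genes) and 14 lower (34.9%), with a median of -0.65, and in TAZ4SA 3 (31.1%) and 8 (26.4%), with a median of -0.20. In TAZ-CAMTA1 3 were higher (12.5%), in YAP-TFE3 1 (10.6%) and in EVsub 3 (12.5%), with 0 lower in each (8.98%, 4.74% and 9.59%), and by edgeR 0 were called in TFE3 and in CAMTA1, where 1 and 2 had an unadjusted p under 0.05 and DESeq2 also called 0. Against TAZ4SA 13 were higher and 4 lower in TAZ-CAMTA1 (beside 26.6% and 28.1%), and against YAP5SA 15 and 2 in YAP-TFE3 (beside 36.4% and 34.5%).

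Among these factors Zfp445, a zinc finger protein that protects imprints, fell in TAZ4SA (-0.98, edgeR adjusted p = 0.000891) and YAP5SA (-1.92, 2.63e-07). Ctcf, the insulator protein bound at the Igf2-H19 control region, fell by less (-0.62 and -0.93, edgeR adjusted p = 7.12e-06 and 1.12e-08). Uhrf1, which brings Dnmt1 to replicating DNA, fell in TAZ4SA (-0.85, edgeR adjusted p = 0.0401) and YAP5SA (-1.40, 0.00128) and rose in EVsub (1.58, 0.00212). Dnmt1, the maintenance methyltransferase, rose in TAZ-CAMTA1 (0.73, edgeR adjusted p = 0.00906) and EVsub (0.90, 0.00213) and was at 0.0015 and -0.00055 in TAZ4SA and YAP5SA (edgeR adjusted p = 0.996 and 0.999). Zfp57 rose in TAZ-CAMTA1 (1.06, edgeR adjusted p = 0.000823) and YAP-TFE3 (0.66, 0.0343). Trim28, the corepressor that Zfp57 and Zfp445 recruit, was called in none of the 9 contrasts. DNA methylation was not analysed here.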

How the data were processed

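The authors deposited raw counts per Ensembl gene for each library, whole numbers without normalization. Per the study's methods, polyadenylated RNA was sequenced in paired ends from a stranded kit on an Illumina instrument, reads were processed with bcbio-nextgen, aligned to mm10 with Hisat2 and also assigned to transcripts with Salmon, summed to genes by tximport. The program behind the deposited counts and its use of strand are not given in the sources used here. Groups and replicate numbers came from the labels, and for YAP-TFE3 replicate 3 the number in the title was used because its description names another replicate. The 34 genes, the other lists and the tests were chosen with earlier results of these data known.

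Symbols and coordinates came from GENCODE M21 (GRCm38) by identifier, which named 37607 of 39017 genes. The 14361 genes averaging 5 counts or more were fitted with edgeR 4.0.16 (R 4.3.3), TMM normalization and the quasi-likelihood test, with all 24 libraries and a coefficient per group, and p-values were adjusted by Benjamini-Hochberg over all genes. Values in every library are given for all tested genes of the Igf2-H19 and Dlk1-Dio3 domains and for genes averaging 50 counts or more that were among the 2 largest called rises or falls in any contrast. CPM used TMM-scaled library totals (factors 0.773 to 1.09), with the median total at 22298975 counts. A count of 0 allows up to 3 counts per library, and intervals at 95% cover the spread between libraries. Tested on simulated counts for TAZ-CAMTA1 against EV (14361 genes, 200 changed), the fit recovered 144 changed genes at a log2 change of 1 with 7 false calls, and 182 at 2 with 13. The alternatives were DESeq2 1.42.0, its size factors, library totals alone, no filter on low counts, at least 10 counts in every library, only the 2 compared groups in the fit, a replicate block, and leaving out each library. Tables and plots were made in Python 3.11.15 (matplotlib 3.10.9, numpy 2.4.6, pandas 2.3.3). RefSeq windows were searched on both strands. SW872 libraries and other assays were not analysed here.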

Additional observations from a re-analysis of the deposited data

Results flagged for a closer look

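Plagl1 was called in opposite directions against EV in TAZ-CAMTA1 and TAZ4SA and in YAP-TFE3 and YAP5SA, and the tested differences were 2.75 and 5.07 on the log2 scale. Igf2os was lower than EV in YAP-TFE3 and higher in YAP5SA, with a tested difference of -6.30. Slc38a4 was higher than EV in YAP-TFE3 and lower in YAP5SA, with a tested difference of 1.21. Among genes too low to be tested, Sgce had at least 4 counts in every YAP-TFE3 library and at least 8 in every YAP5SA library, above the highest EV library at 1. Sgce in TAZ4SA, with 5, 2 and 9 counts, was not flagged, since its lowest library did not exceed 3 counts. Ppp1r9a had at least 5 counts in every TAZ4SA library, above the highest EV library at 2.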

How the results depend on the processing

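None of the 79 called results reversed under any alternative, and 60 of them stayed called under every one. Called results that fell below the threshold numbered 1 of 79 with DESeq2, 0 with its size factors, 1 of 67 with at least 10 counts in every library, 3 with library totals alone, 1 without a filter and 11 with only the 2 compared groups in the fit. Samples were not treated as paired by replicate number, since in no contrast did all 3 same-numbered pairs correlate above 0.1. In CAMTA1 against EVsub the 3 correlations were 0.25, -0.0025 and 0.41, so some pairing there is not excluded. A fit with the replicate block kept all 79 calls and gave 9 called genes in TAZ-CAMTA1 against EV in place of 7. Without a filter, YAP-TFE3 against EV, TFE3 against EV and CAMTA1 against EVsub each gave 5 called genes. With only the 2 compared groups in the fit the counts were 5 (YAP-TFE3), 4 (TFE3), 1 (CAMTA1) and 2 (EVsub against EV), and DESeq2 gave 5 in CAMTA1, against 3, 2, 2 and 5 as reported. The cause was not tested.

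With each library left out in turn, the counts ranged from 5 to 8 in TAZ-CAMTA1, 10 to 13 in TAZ4SA, 1 to 4 in YAP-TFE3, 15 to 16 in YAP5SA, 2 to 3 in TFE3, 1 to 4 in CAMTA1 and 3 to 5 in EVsub against EV, and from 12 to 16 and 15 to 17 in the contrasts with TAZ4SA and YAP5SA. Of the 474 leave-one-out results of called genes, 48 fell below the threshold. The low counts of Gnas, Mest, Asb4 and Nnat limit the precision of their fold changes.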
